A study of Mus musculus with 13 samples.

Results

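Fibroblasts that carried transcripts of Gdf10, Clec11a, Fmo2, F3, Meox2 and Vit were examined across 13 droplet single-cell RNA libraries of the mouse mammary gland. A barcode was taken as a fibroblast when it held 500 to 7500 genes, at most 10% mitochondrial UMIs (unique molecular identifiers, each counting 1 captured RNA molecule), at least 50 UMIs of Dcn, Lum and Col1a2 together per 10000, and no UMI of Epcam, Pecam1, Rgs5, Sox10, Ptprc or Myog. A fibroblast was a member when at least 3 of the 6 markers were detected in it. The rule found 12352 members among 100523 fibroblasts, and the 88171 remaining fibroblasts served as the comparison. The members were chosen by these measured values, so the level of the 6 markers in members is a description and is not tested.

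The study followed mammary fibroblasts through development, hormone exposure and Wnt1-driven tumorigenesis. Puberty (4 weeks per the labels, slightly older per the study's methods), adult (virgin, 9 weeks), pregnancy (day 14.5), lactation (day 10) and involution (day 4) were represented by 1 library each of Lineage–CD24– sorted stroma from wildtype C57BL/6 females, each pooling 2 mice. The placebo and MPA+E groups (medroxyprogesterone acetate plus estradiol, 9 weeks, same strain, genotype and sort) held 2 libraries each, again with 2 mice pooled per library. Per the study's methods, hormone or placebo pellets had been implanted under the skin of these mice a week before collection. The hyperplasia and tumor groups held 2 libraries each of sorted GFP+ cells from females of the genotype Pdgfra-GFP KI/+ MMTV-Wnt1 T/+ of the raGFP-Wnt1 strain, kept on a C57BL/6 FVB mixed background, and each mouse gave 1 hyperplasia and 1 tumor library with its number (mouse 1 at 45 weeks, mouse 2 at 17 weeks). In these mice the MMTV promoter drives Wnt1 in the mammary epithelium and the Pdgfra locus drives the reporter by which the cells were sorted, so strain, sort and age differed from those of the wildtype libraries. All mice were female.

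Adipogenesis-regulatory fibroblasts are stromal cells of fat tissue that restrain the conversion of neighbouring preadipocytes into adipocytes. In the mammary gland, ducts grow into a fat pad, and preadipocytes and adipocytes are lost and regained as the gland passes through pregnancy and involution. Gdf10 is a secreted BMP family member, Clec11a is a secreted lectin that acts on skeletal progenitors, Fmo2 is a flavin-containing monooxygenase, F3 is tissue factor, the receptor that starts coagulation, Meox2 is a homeobox transcription factor, and Vit (vitrin) is an extracellular matrix protein. On mm10 the genes lie at chr14:33923587-33937983 (Gdf10), chr7:44302687-44306902 (Clec11a), chr1:162874317-162898726 (Fmo2), chr3:121723537-121735048 (F3), chr12:37108540-37179534 (Meox2) and chr17:78508064-78627408 (Vit).

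Libraries held 56551189 to 112550204 UMIs in 5230 to 14424 barcodes. The median member held 3897 to 22930 UMIs depending on the library, and the median remaining fibroblast 3994 to 19583. Cells with the highest doublet scores made up 5.76% to 18.0% of members and 3.33% to 11.3% of the remaining fibroblasts, and the share was higher in members in 13 of 13 libraries. They were kept, and the comparisons were repeated without them. Any pair of libraries shared 3 to 34 fibroblast barcodes and 0 to 3 member barcodes. Among 1393 non-fibroblast cells (under the limit for Dcn, Lum and Col1a2, with at least 2 UMIs of Epcam, Pecam1 or Ptprc, median 6007 UMIs), 8 held at least 3 of the markers, a share of 0.574% (exact 95% interval 0.248% to 1.13%). By library it ran from 0 of 316 in pregnancy, where the exact interval reached 1.16%, to 2 of 43 in tumor 1 (4.65%, interval 0.568% to 15.8%), with 2 of 184 in tumor 2. In tumor 2, 38.6% of these non-fibroblasts held a UMI of Clec11a. Over all libraries 22.5% of them held a UMI of Fmo2, 17.8% of F3, 10.1% of Meox2, 7.61% of Clec11a, 0.503% of Vit and 0.431% of Gdf10. The part of free RNA in the tumor shares was not tested.

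The 6 markers tended to mark the same cells in 11 libraries, to unlike degrees. In the tumors they did so weakly when all UMIs were used. When cells were chosen at an equal, lower number of UMIs each, all 6 ratios were larger in tumor 1. In tumor 2 some ratios were then larger and others smaller. Far fewer cells were chosen in this way, and the cause of the change was not tested. Each marker was compared between cells that held at least 3 of the other 5 and cells that did not, so that the tested marker had no part in the choice. In the 11 libraries without tumors the mean log2 ratio (CPM, counts of the summed cells scaled to a common total, plus 1) was 3.13 (SD 0.28) for Gdf10, 2.91 (SD 0.76) for Clec11a, 2.96 (SD 0.93) for Fmo2, 3.08 (SD 0.53) for F3, 2.76 (SD 0.43) for Meox2 and 2.73 (SD 0.36) for Vit. Every marker was higher in 11 of 11 libraries. Over all 13 the means were 2.84, 2.46, 2.57, 2.75, 2.45 and 2.37 in the same order, with Clec11a and Fmo2 higher in 12 of 13 libraries and the other 4 in 13 of 13. These values are a description, since the markers were known from these samples and the tumors are set apart here for how they behaved. The median ratio over the 6 markers was 4.65 to 11.2 in the 11 libraries, against 2.08 in tumor 1 and 1.29 in tumor 2. Single markers overlapped between them. The lowest ratio was 2.71 in involution and 2.95 in hyperplasia 2, and the highest in tumor 1 was 3.61.

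**Figure D1:**
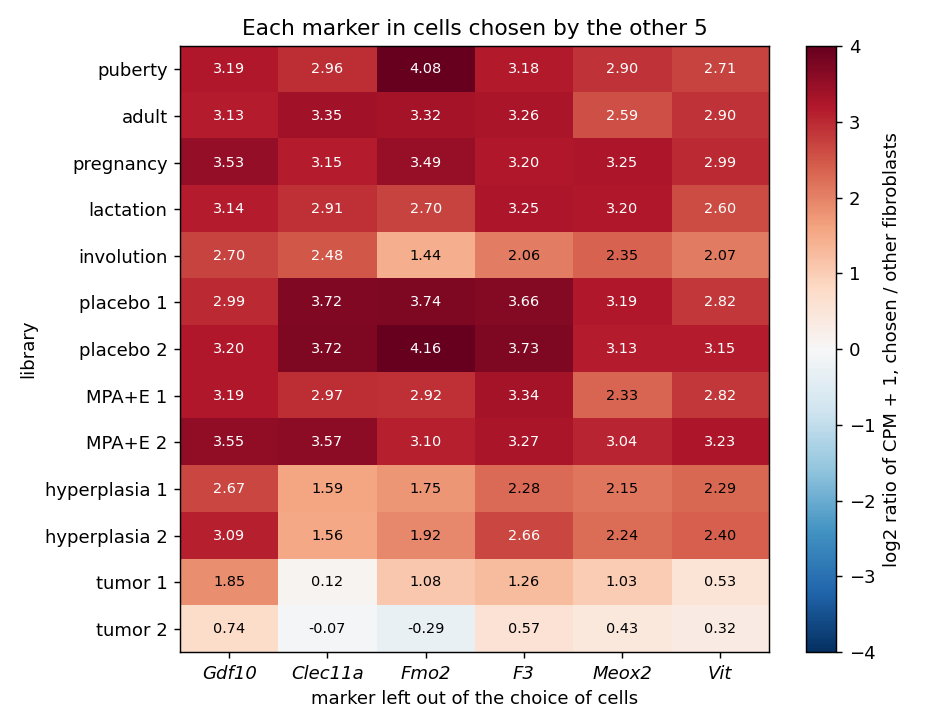
Log2 ratio of CPM + 1 for each marker (columns) in cells holding at least 3 of the other 5 against all other fibroblasts, by library (rows). Every value outside the tumors is positive, whereas Clec11a averaged 0.03 over the tumors.

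By the rule as given, with all UMIs, the tumor cells bore out the label only weakly. The log2 ratios ran from 0.12 (Clec11a) to 1.85 (Gdf10) in tumor 1. In tumor 2 they ran from -0.29 (Fmo2) to 0.74 (Gdf10), with Clec11a (-0.07) also below 0. Clec11a, which averaged a log2 ratio of 0.03 over the tumors, stood at 83.3 CPM in the chosen cells of tumor 1 against 76.5 CPM in the others, and at 111.5 against 117.1 CPM in tumor 2. Over all fibroblasts Clec11a and F3 were highest in the tumors (77.0 and 117 CPM for Clec11a, 107 and 143 CPM for F3), and Gdf10, Fmo2 and Vit were lowest there. The commonest combination among tumor members was Clec11a with F3 and Meox2 (578 cells, 26.8%). In the other 11 libraries it was all 6 markers together (859 cells, 8.42%), followed by Gdf10, Fmo2 and F3 (698 cells, 6.84%). When cells were chosen at 2000 UMIs each, the tumors parted. In tumor 1 all 6 markers were higher in the chosen cells, by log2 ratios of 1.49 (Clec11a) to 3.60 (Gdf10), with 35 to 79 cells chosen. In tumor 2 they ran from -1.82 (Vit) to 2.11 (Gdf10), with 9 to 30 cells chosen, and Clec11a (-0.0656) and F3 (-0.14) were also below 0. The rule takes cells with all UMIs, so the tumor members are named here by the rule that chose them and not as adipogenesis-regulatory fibroblasts, and the comparison of members with remaining fibroblasts is given with and without them.

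The share of fibroblasts that met the rule differed among the stages by several fold. Puberty had 14.6%, the adult library 6.18%, the pregnant library 3.62%, the lactating library 10.8% and the involuting library 12.96%. Exact 95% intervals, which cover counting error only, ran from 13.8% to 15.4% at puberty and from 3.28% to 3.97% in pregnancy. The ratio of puberty to pregnancy was 4.03 (3.61 to 4.50). With every cell thinned to 2000 UMIs the shares were 6.58%, 1.85%, 1.66%, 3.90% and 3.57% in the same order, and the ratio was 3.97. Thinning left out 439, 639, 1310, 124 and 237 shallower cells. With 1 library per stage these differences have no replicate check. The placebo libraries, from females of the same age, strain and sort as the adult library, had 19.0% and 16.5% (6.37% and 5.92% thinned) against its 6.18% (1.85% thinned), a gap of the same order as those among stages. The placebo mice also carried an implanted pellet, whose part in this gap was not tested.

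**Figure D2:**
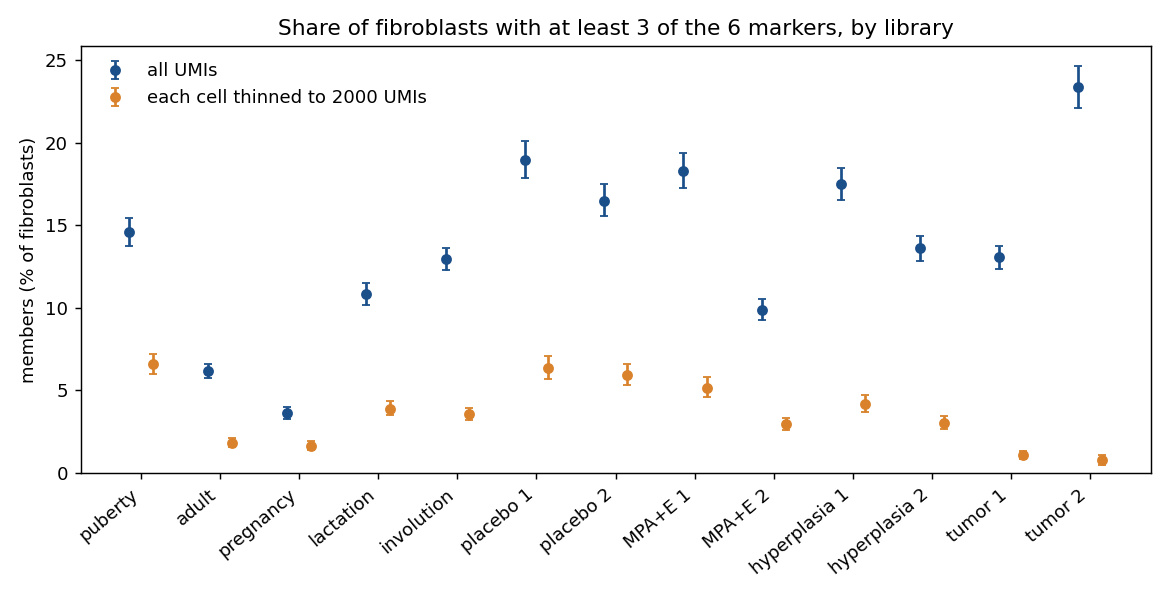
Share of fibroblasts with at least 3 of the 6 markers (vertical axis, percent) in each of the 13 libraries, with all UMIs and with each cell thinned to 2000 UMIs. Bars are exact 95% binomial intervals. With all UMIs tumor 2 was highest (23.3%), and after thinning it was lowest (0.761%).

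Under hormone treatment no difference in the share could be shown with 2 libraries per arm. It was 19.0% and 16.5% in placebo and 18.3% and 9.87% in MPA+E, and the first MPA+E library lay between the placebo libraries. The mean log2 difference was -0.40 (exact permutation test, two-sided, p = 0.667, where 2 against 2 libraries cannot go below 0.333). After thinning it was 6.37% and 5.92% against 5.17% and 2.96%, with 151, 240, 107 and 250 cells left out. Both MPA+E libraries then lay below both placebo libraries, with a log2 difference of -0.65 and the smallest p this design allows (exact permutation p = 0.333). Of the 6 markers summed over all fibroblasts, only F3 passed the test with MPA+E. It fell from 90.5 and 72.7 CPM to 50.2 and 37.6 CPM (log2 -0.89 ± 0.14 SE, edgeR adjusted p = 0.0418), where 4.33% of 15642 genes were called, and the call was lost without placebo 1 (-0.79) or placebo 2 (-0.98). For such summed levels, fewer cells of the type and less RNA per cell cannot be told apart.

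In hyperplasia 17.5% and 13.6% of fibroblasts met the rule, against 14.6% at puberty and 6.18% in the adult, the tissue that the study joins as normal. The hyperplasia values and the puberty value overlapped, and the mean log2 difference was 0.70 (exact permutation p = 0.667, two-sided). After thinning (4.18% and 3.04%, 86 and 247 cells left out) it was 0.03. F3 was higher in hyperplasia, at 98.1 and 78.7 CPM against 40.2 and 17.8 CPM over all fibroblasts (log2 1.70 ± 0.39 SE, limma-voom adjusted p = 0.0411), where 14.0% of genes were called. This call was lost on leaving out the puberty, adult, hyperplasia 1 or hyperplasia 2 library (log2 1.08 to 2.31). Strain, sort and age cannot be told apart from hyperplasia in this comparison. Other wildtype libraries reached like values. Over all fibroblasts F3 stood at 90.5 and 72.7 CPM in placebo, 93.0 CPM in lactation and 97.0 CPM in involution. The share was 19.0% and 16.5% in placebo.

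In the tumors the direction of the share depended on the setting. It was 13.1% and 23.3%, a mean log2 difference of 0.18 from the hyperplasia of the same mice (exact sign-flip permutation p = 1, two-sided, smallest possible 0.5). After thinning it was 1.07% and 0.761% (232 and 164 cells left out), a log2 difference of -1.98, and it was lower in 2 of 2 mice. With all UMIs the difference also turned negative with at least 4 markers (-0.67), on dropping Clec11a (-0.60), F3 (-0.69) or Meox2 (-0.43) from the rule, and without tumor 2 (-0.24). Over all fibroblasts Gdf10 fell from 73.1 and 41.0 CPM to 19.5 and 17.0 CPM (log2 -1.59 ± 0.34 SE, limma-voom adjusted p = 0.0210) and Fmo2 from 82.0 and 89.5 CPM to 17.5 and 7.61 CPM (log2 -2.88 ± 0.46 SE, adjusted p = 0.0113). Both calls were lost on leaving out hyperplasia 1 or hyperplasia 2. Of all genes tested, 29.3% were called. Clec11a (log2 1.13, adjusted p = 0.116) and Vit (log2 -2.03, adjusted p = 0.0574) did not pass the test, but both did with the mouse as a block (limma-voom adjusted p = 0.0468 and 0.0329). The hyperplasia libraries are shared by both raGFP-Wnt1 comparisons.

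Several genes that the rule did not use changed with the number of markers detected. In the 11 libraries without tumors, 41763 fibroblasts held none of the 6 markers and 859 held all of them. Between these classes Hhip, a secreted inhibitor and target of Hedgehog signalling, went from 1.35 to 90.1 CPM, and Gli1, the Hedgehog-responsive transcription factor, from 0.816 to 26.3 CPM. Cygb (cytoglobin) went from 189 to 1104 CPM and Gas6, a ligand of the TAM receptors, from 138 to 1179 CPM. Pi16, which marks the pan-tissue fibroblast progenitor, fell along the same steps from 1779 to 223 CPM, and Dpp4, encoding CD26, from 348 to 43.4 CPM. Chrdl1, a BMP antagonist, fell from 69.1 CPM with no marker to 49.5 CPM with 1 before it reached 356 CPM with 6, and Apoe rose from 210.1 CPM to 1234 CPM with 4 markers and stood at 1002 CPM with 6. These levels are means over libraries of the CPM of pooled cells and carry no test.

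The limit of 3 markers fell on this slope and not at a gap. Cells just outside it, with 2 markers, held 5.53 CPM of Hhip, 358 of Cygb, 60.2 of Chrdl1 and 479 of Pi16. Cells just inside it held 10.8, 526, 117 and 356 CPM. In the tumors Hhip stayed at or under 0.989 CPM in every class with up to 4 markers and reached 10.1 and 23.6 CPM in the 108 cells with 5 markers and the 20 cells with 6.

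**Figure D3:**
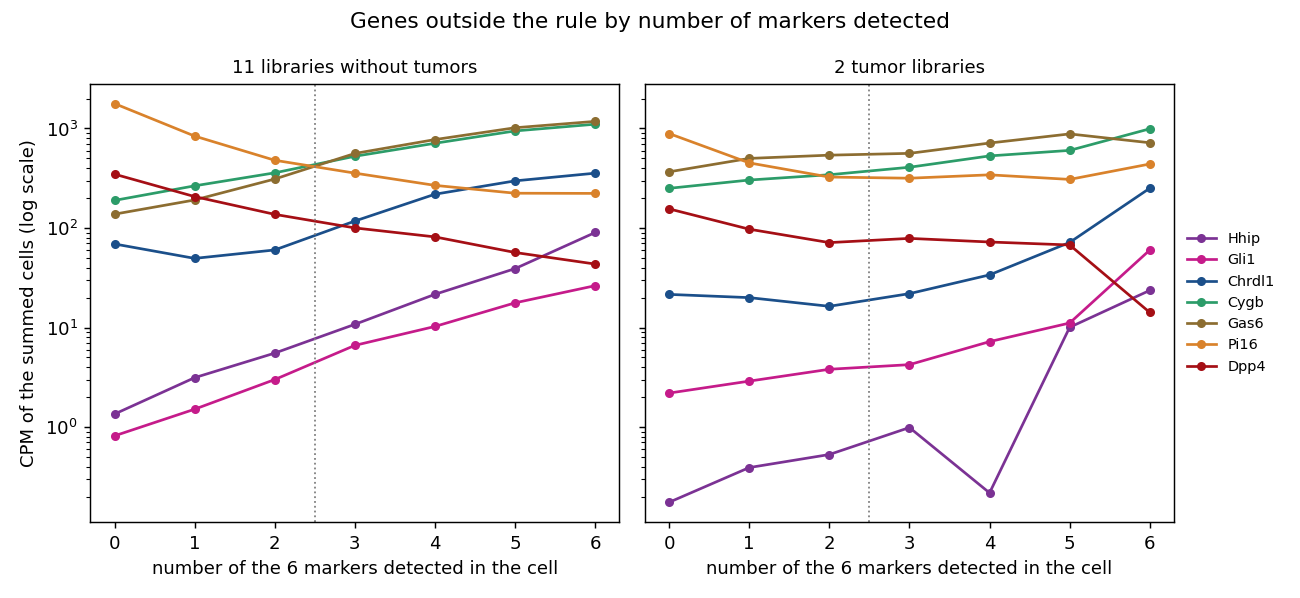
CPM of the summed cells of each library, as a mean over libraries (log scale), for 7 genes outside the rule. Cells are grouped by the number of the 6 markers detected, in the 11 libraries without tumors (left) and in the tumors (right). The dotted line is the limit for members. Outside the tumors Hhip went from 1.35 to 90.1 CPM and Pi16 from 1779 to 223 CPM.

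Members differed from the remaining fibroblasts of the same library in genes of the Hedgehog pathway, complement, retinoic acid metabolism and the adipogenesis-regulatory program, and were low in progenitor markers. edgeR's quasi-likelihood test, with the library as a block, called 2694 genes higher (16.6%) and 3490 lower (21.6%) in members of 16192 tested, 38.2% in all. Without the tumors it called 3052 higher (19.4%) and 3762 lower (23.9%) of 15718, or 43.4%, and 5868 of the 6184 calls (94.9%) were made again with the same sign. When the remaining fibroblasts were matched to members on UMIs, 73.4% of the calls were made again, and without high doublet scores 2680 genes were higher and 3472 lower. Members and remaining cells of a library share its preparation, so the test concerns differences within libraries. Depth per cell still differed between the classes, in both directions. The median was 22930 UMIs in members and 19583 in the rest of tumor 2, and 8531 and 10338 in MPA+E 2.

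Among the genes with the largest differences, the complement component C7 stood at 3.91 to 84.2 CPM in members (median 32.3) and 0.685 to 40.5 CPM in the remaining fibroblasts (median 1.63) of the 11 libraries without tumors. C7 was higher in members in 13 of 13 libraries, by 3.43 ± 0.47 SE on the log2 scale (edgeR adjusted p = 2.2e-05), although the ranges of both classes overlapped between libraries. Hhip did not overlap, at 11.5 to 50.1 CPM (median 19.0) against 1.24 to 5.21 CPM (median 2.29). Its log2 difference was 3.11 ± 0.23 SE (edgeR adjusted p = 5.4e-08). Slco2b1, an organic anion transporter (2.36), Tmem176a and Tmem176b (2.34 and 2.21), Tspan11 (2.10), Tifa (2.04), Klf5 (2.02), Mlana (1.95), Vtn, which encodes vitronectin (1.94), and Abcc9, a regulatory subunit of ATP-sensitive potassium channels (1.85), were also higher in all 13 libraries, as were 3.79% of genes.

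Akr1c18 and Aldh1a3 led the genes that were lower in members. Akr1c18, which inactivates progesterone, stood at 7.93 to 47.9 CPM in members (median 20.1) and 58.8 to 306 CPM in the remaining fibroblasts (median 114) outside the tumors, with no overlap, and a log2 difference of -2.31 ± 0.18 SE (edgeR adjusted p = 8.5e-08). Aldh1a3, which makes retinoic acid, differed by -2.25 ± 0.14 SE. Chst1 (-2.14), Dmkn (-1.97), Car8 (-1.97), Dact2 (-1.961), Efhd1 (-1.92), Stmn4 (-1.90), Aif1l (-1.90), Rorb (-1.89), Bmp7 (-1.86) and Uchl1 (-1.74) were lower in all 13 libraries, as were 5.28% of genes. In tumor 2 several of these gaps were narrow, with Akr1c18 at 4.93 CPM in members and 5.37 CPM in the rest and Car8 at 0.877 against 0.909 CPM.

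**Figure D4:**
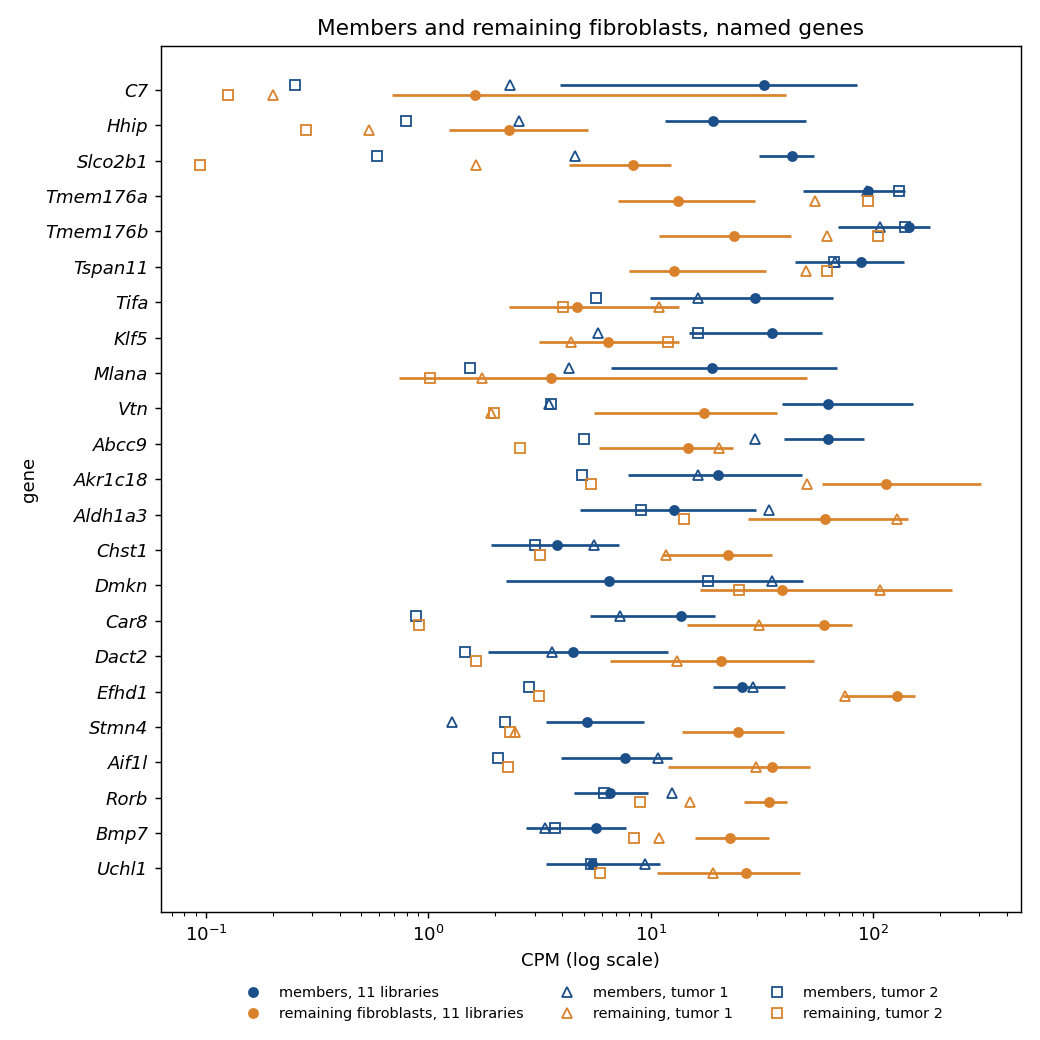
CPM (log scale) of 11 genes that were higher and 12 that were lower in members in all 13 libraries. Filled points are medians and lines the range over the 11 libraries without tumors, and open symbols are the tumors. Hhip ranged from 11.5 to 50.1 CPM in members and from 1.24 to 5.21 CPM in the rest.

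Of 20 genes reported for adipogenesis-regulatory cells or for the study's matching cluster, 19 were higher in members, with a median log2 difference of 1.40 beside -0.016 over all genes. The study chose part of this list on these samples, so its direction is not independent evidence. Gas6 differed by 1.85, Chrdl1 by 1.76, Apoe by 1.66, the complement genes C2 and C4b by 1.66 and 0.88, Cygb by 1.40, the chemokine Cxcl12 by 1.35 and the IGF-binding protein Igfbp3 by 1.29. Adamts12 (0.08) did not pass the test. Igfbp3 lay the other way in the tumors, at 576 and 403 CPM in members against 990 and 714 CPM in the rest. C4b shares sequence with C4a, so its own level is uncertain.

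Of 15 adipocyte differentiation genes 3 were higher and 5 lower in members, with a median of -0.14. Beside this and the list counts below, 16.6% of all genes were higher and 21.6% lower. Without the tumors 2 of the 15 genes were higher and 7 lower, with a median of -0.20, beside 19.4% and 23.9% of all genes. Pparg, the master regulator of adipogenesis, stood at 5.09 to 22.3 CPM in members and 5.55 to 24.2 CPM in the rest outside the tumors. Its difference was -0.14 ± 0.07 SE (edgeR adjusted p = 0.135), and -0.24 ± 0.05 SE (adjusted p = 0.000905) without the tumors. Fabp4 differed by -0.22 and Cebpb by -0.07, and neither was called (Fabp4 was lower, by -0.37, without the tumors), whereas Cebpa (0.18), Cebpd (0.25) and Lpl (0.11) were slightly higher and Mgll (-1.08), Zfp423 (-0.55), Plin2 (-0.54), Ebf2 (-0.38) and Klf4 (-0.19) lower.

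Most Hedgehog genes, from ligand-binding proteins to transcription factors, were higher in members. Of 11 tested, 8 were higher, with a median of 0.41. After Hhip came Gli1, at 5.63 to 15.8 CPM in members against 0.975 to 2.04 CPM in the rest outside the tumors (log2 2.56 ± 0.26 SE, edgeR adjusted p = 1.0e-06), then Ptch1 (0.87), the co-receptors Boc (0.65), Cdon (0.39) and Gas1 (0.27), and Gli2 (0.41). Smo (0.03), Gli3 (-0.04) and Sufu (-0.11) did not pass the test.

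BMP and TGF-beta genes differed in both directions. Of 21 tested, 6 were higher and 9 lower, with a median of -0.08. The secreted BMP antagonist Nog (2.89) was higher, as was the activin receptor Acvr2a (0.92), while the ligands Bmp7 (-1.86), Bmp3 (-1.61), Bmp2 (-1.15) and Tgfb2 (-0.68) were lower. Nog stood at 0.547 to 13.8 CPM in members and 0.0895 to 1.07 CPM in the rest outside the tumors. Grem1 (-0.85) was not called.

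Retinoic acid and Wnt genes were mixed as well. Of 12 retinoic acid genes, 4 were higher and 5 lower. Aldh1a2, another retinoic acid synthase, stood at 0.729 to 26.4 CPM in members (median 12.3) and 0.0648 to 0.809 CPM in the rest (median 0.179) outside the tumors, a log2 difference of 4.12 ± 0.68 SE over all libraries (edgeR adjusted p = 0.000145). In the tumors it did not separate the classes (8.51 and 12.6 CPM in members, 11.4 and 11.1 CPM in the rest). Cyp26b1, which degrades retinoic acid, was higher (1.30), and Stra6 (-1.37) and Crabp1 (-1.13) were lower. Of 15 Wnt genes, 4 were higher, among them Rspo1 (1.79) and the receptor Fzd4 (1.31), and 6 lower, among them the ligands Wnt10b (-2.09) and Wnt2 (-0.91) and the Wnt target Axin2 (-0.53).

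Complement genes were higher for 7 of 9, with a median of 0.57. Besides C7, Cfi (3.66) and Cfb (0.94) were higher, although Cfi reached only 0.279 to 3.76 CPM in members. Of 9 monooxygenase and oxidation genes, 4 were higher, with Cyp2f2 (2.58) and Cyp1b1 (1.06) ahead of Fmo1 (0.44) and Aox1 (0.35). Of 11 coagulation and fibrinolysis genes other than F3, 2 were higher and 6 lower, among them the protein C receptor Procr (-0.78) and the plasminogen activators Plau (-0.61) and Plat (-0.53). Among hormone receptors and their targets, Prlr, the prolactin receptor, was higher in members, at 4.41 to 64.9 against 1.10 to 15.8 CPM outside the tumors (log2 2.04 ± 0.15 SE, edgeR adjusted p = 4.6e-08). Igf1 (0.74) and Ghr (0.42) were higher too, and Pgr (-1.75) and Esr1 (-0.40) were lower.

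Of 13 mesenchymal transcription factors, 8 were higher, led by Nfib (0.78) and Osr1 (0.69), and 4 lower, led by Osr2 (-1.11). Progenitor markers were lower for 7 of 8, with a median of -1.47, among them Pi16 at 204 to 467 CPM against 859 to 1578 CPM outside the tumors (log2 -1.78 ± 0.17 SE, edgeR adjusted p = 7.5e-07) and Dpp4 (-1.42). Of 8 lobular markers 2 were higher and 3 lower, beside 16.6% and 21.6% of all genes. Of 8 ECM-remodelling markers 1 was higher (Mmp3, 0.71) and 7 lower. The proliferation marker Mki67 (0.10) was not called. Without the tumors the counts were 8 higher and 9 lower of 20 BMP and TGF-beta genes, 4 and 7 of 15 Wnt genes and 2 and 7 of 11 coagulation genes, and they were as above for the adipogenesis-regulatory, Hedgehog, retinoic acid, monooxygenase, complement, hormone receptor, transcription factor, progenitor, lobular and ECM-remodelling lists.

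Markers of other cells differed as well. The summed level of 6 pericyte markers was 32.1 to 139 CPM in members (median 77.8) against 16.8 to 64.6 CPM in the rest (median 32.7), higher in 12 of 13 libraries. Rgs5 was at 0 by the rule, and of 5 others tested 3 were higher (Abcc9, 1.85; Kcnj8, 1.40; Notch3, 0.46). Without the tumors 5 of 5 were higher, with a median of 0.79. The part of these cells in the result was not tested. Endothelial markers summed to 14.95 to 42.2 CPM in members and were lower than in the rest in 13 of 13 libraries, but that sum was mostly Tek (-1.33), and Cdh5, the endothelial cadherin, was higher in members (2.78). Cdh5 was near the floor, at 0.0488 to 0.139 CPM in the remaining fibroblasts of the placebo and MPA+E libraries. Of 4 endothelial markers tested, 1 was higher and 1 lower with the tumors and 2 and 1 without them. The medians were 0.753 against 0.824 CPM for 7 epithelial markers, which were higher in members in 4 of 13 libraries (82.0 against 45.2 CPM in pregnancy and 3.85 against 0.824 CPM in the adult), and 3.63 against 3.80 CPM for 5 immune markers, which were higher in members in 8 of 13 libraries (11.1 against 3.80 CPM at puberty).

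In members, MPA+E raised Ctla2a, Greb1, Pgr and 3 interferon-inducible genes and lowered Igf1, Igfbp3 and Igfbp5. The summed pericyte markers were also lower under MPA+E, at 61.9 and 77.8 CPM in members against 111.2 and 125.6 CPM in placebo, and in the rest at 16.8 CPM in both MPA+E libraries against 39.4 and 39.8 CPM in placebo. Their part in the results was not tested. edgeR called 222 genes higher (1.77%) and 93 lower (0.742%) of 12526, 2.51% in all, and for 41.4% of genes the MPA+E libraries lay wholly to 1 side of placebo. In the remaining fibroblasts it called 460 higher (3.01%) and 327 lower (2.14%) of 15277, or 5.15%. Ctla2a, a cysteine protease inhibitor with a near-identical neighbour that makes its own level uncertain, went from 15.4 and 7.66 CPM in placebo to 551 and 838 CPM (log2 5.98 ± 0.39 SE, adjusted p = 0.00303). Greb1, an estrogen receptor target, went from 6.40 and 7.09 to 74.8 and 64.3 CPM (3.41 ± 0.15 SE, edgeR adjusted p = 0.00104). The progesterone receptor Pgr went from 1.13 and 3.50 to 19.9 and 25.1 CPM (3.35 ± 0.43 SE, edgeR adjusted p = 0.0108). Ngfr (3.89), the neuronal X-linked gene Nexmif (3.13) and the interferon-inducible genes Oas3 (3.99), Ifi206 (3.62) and Ifi44 (3.42) rose as well, with no overlap between arms. Ifi206 belongs to a family of close copies and its level is uncertain.

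Igfbp3 fell from 364 and 435 CPM to 56.4 and 69.8 CPM (log2 -2.62 ± 0.21 SE, edgeR adjusted p = 0.00303), Igf1 from 418 and 379 to 110 and 99.5 CPM (-1.89 ± 0.13 SE, edgeR adjusted p = 0.00303) and Igfbp5 from 850 and 803 to 204 and 238 CPM (-1.85 ± 0.17 SE, edgeR adjusted p = 0.00415). The matricellular gene Ccn3 (-2.32), the TGF-beta-induced gene Tgfbi (-2.08), the Wnt regulators Dkk2 (-1.85) and Nkd1 (-1.79) and the sphingomyelinase Smpd3 (-1.80) fell too. Ccn3 was not called once high doublet scores were removed (-1.82).

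Of the 20 adipogenesis-regulatory genes 1 rose and 3 fell in members with MPA+E. Gas6 rose from 466 and 548 CPM to 1371 and 1365 CPM (log2 1.47 ± 0.18 SE, edgeR adjusted p = 0.00893). Igfbp3, Cxcl12 (662 and 586 to 236 and 242 CPM, -1.34) and Apoe (1390 and 1464 to 618 and 699 CPM, -1.07) fell. Of 15 adipocyte differentiation genes Ccn5 rose (2.34) and Pparg (20.5 and 16.5 to 8.41 and 8.17 CPM, -1.11, edgeR adjusted p = 0.0161) and Fabp4 (-1.23) fell. On leaving out 1 library Apoe ranged from -1.23 to -0.91 and Pparg from -1.20 to -1.01. Each lost its call in 1 of 4 such fits. Esr1, the estrogen receptor, fell from 49.0 and 47.8 to 15.2 and 16.8 CPM (-1.56). Of 11 Hedgehog genes 2 fell, among them Cdon (-1.10), and Hhip (-0.87, edgeR adjusted p = 0.0636) and Gli1 (-0.69, adjusted p = 0.141) were not called. Gpx3, a secreted glutathione peroxidase, rose from 621 and 657 to 2474 and 2609 CPM (2.04). Of the other lists, 2 of 20 BMP and TGF-beta genes fell and 1 rose, 3 of 14 Wnt genes fell, 1 of 7 complement genes rose, 2 of 8 monooxygenase and oxidation genes rose, 2 of 9 hormone receptors and targets rose and 2 fell, 1 of 12 retinoic acid genes rose and 1 fell, 1 of 11 coagulation genes rose, 2 of 8 progenitor markers rose and 2 fell, and 2 of 8 lobular markers fell. The median over all genes was -0.01, and 1.77% of all genes rose and 0.742% fell. Many of these changes were not particular to members. In the remaining fibroblasts Apoe (-1.26), Igfbp3 (-2.01), Esr1 (-1.76) and Cdon (-1.07) also fell and Ccn5 (2.87) also rose, whereas Cxcl12 (-0.12) was not called. Of the 20 adipogenesis-regulatory genes 6 rose and 3 fell there.

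For several genes the response of members differed from that of the remaining fibroblasts of the same libraries. The edgeR test of that difference called 91 genes as more positive (0.611%) and 74 as more negative (0.497%) in members of 14895, 1.11% in all. The remaining fibroblasts join several types, and the study reports more cycling and Crabp1+ fibroblasts under MPA+E. In such sums a changed make-up and changed RNA per cell cannot be told apart. Chrdl1 was at 213 and 221 CPM in placebo members and 166 and 197 CPM in MPA+E members, and fell in the remaining fibroblasts from 88.2 and 90.6 to 20.05 and 23.1 CPM (difference 1.82 ± 0.08 SE on the log2 scale, edgeR adjusted p = 1.4e-05). C7 was at 18.5 and 32.3 CPM in placebo members and 59.4 and 54.0 CPM in MPA+E members, and rose in the rest from 0.998 and 1.63 to 40.5 and 30.1 CPM (difference -3.56 ± 0.16 SE, edgeR adjusted p = 1.4e-05). Members and rest thus lay closer together for C7 and further apart for Chrdl1 under MPA+E. Cxcl12 showed its fall in members and stood at 173 and 149 CPM in placebo and 172 and 124 CPM in MPA+E in the rest (difference -1.22 ± 0.15 SE, edgeR adjusted p = 0.00521). C4b (-0.97), C2 (-1.19) and Inmt (-0.82), 3 further genes of the adipogenesis-regulatory list, responded more positively in the rest, as did Rspo1 (-1.76). The fall of Igf1 (-0.62) and Igfbp3 (-0.65) was larger in members, and that of Ccn3 (1.33) smaller. Anxa3 (0.74), a progenitor marker, was at 176 and 180 CPM in placebo members and 260 and 270 CPM in MPA+E members. With it, 4 of 8 progenitor markers responded more positively in members, with a median difference of 0.65 beside -0.01 over all genes, and in the remaining fibroblasts 5 of the 8 fell and 1 rose. More negative responses in members were called for 3 of 15 Wnt genes, 2 of 12 retinoic acid genes and 2 of 8 ECM-remodelling markers, and more positive ones for 2 of 20 BMP and TGF-beta genes. The changes of Pgr, Greb1, Ngfr, Ctla2a and Gas6 in members were not shown to differ from those in the rest (adjusted p = 0.0527, 0.0669, 0.896, 0.219 and 0.187 in edgeR).

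**Figure D5:**
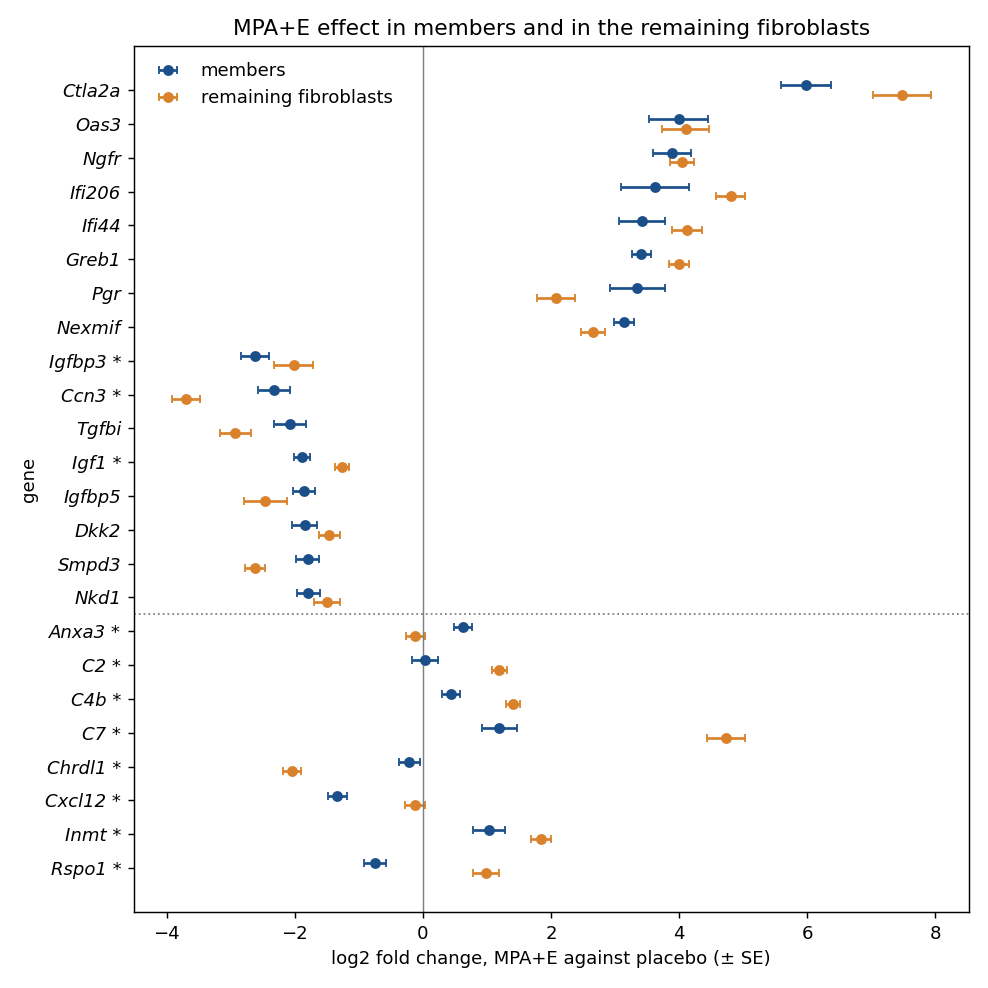
Log2 fold change with MPA+E (± SE, 2 libraries per arm) in members and in the remaining fibroblasts, for the 16 genes with the largest changes in members (above the dotted line) and 8 listed genes whose response differed (below it). An asterisk marks genes whose response differed between the classes. The value for Chrdl1 was -2.05 in the rest and -0.21 in members.

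In hyperplasia, members differed from those of normal tissue in 819 genes that were higher (6.24%) and 768 that were lower (5.85%) of 13133 (12.1% in all, limma-voom), the groups not overlapping for 67.2% of genes, and strain, sort and age cannot be told apart from the tissue state. Ifi202b, which shares sequence with other family members and is uncertain, was at 0 in the puberty and adult members and at 119 and 85.4 CPM in hyperplasia, at least 378-fold higher against a floor of 3 counts over the normal libraries. Crabp1, a retinoic acid-binding protein, went from 1.72 and 4.07 to 188 and 203 CPM (6.18 ± 0.81 SE, limma-voom adjusted p = 0.0108), C1rb, a close copy of C1ra, from 0.156 and 0.428 to 65.9 and 70.0 CPM, and Pla2g7 (5.76), Gdpd3 (5.21) and Gm10260 (5.10) rose with them. Cebpb, an early adipogenic transcription factor, went from 44.0 and 53.5 to 969 and 866 CPM (4.20 ± 0.17 SE, limma-voom adjusted p = 0.000278), and Bmp4 from 4.69 and 2.78 to 61.6 and 61.1 CPM (3.96). The remaining fibroblasts showed like values for both, with Cebpb at 57.5 and 61.3 CPM in normal and 1168 and 985 CPM in hyperplasia. Members of the wildtype placebo libraries, which share age, strain and sort with the adult library, held 512 and 1053 CPM of Cebpb and 28.4 and 31.5 CPM of Bmp4, so Cebpb in placebo 2 lay above both hyperplasia libraries. The placebo mice differed from the adult library in carrying an implanted pellet. Aldh1a2 fell from 26.4 and 18.2 to 0.729 and 1.97 CPM (-4.20, limma-voom adjusted p = 0.0117), and Gabra3 (-5.24), Pax1 (-4.97), Acta2 (-4.44), Olfr1033 (-3.84) and Ecrg4 (-3.81) fell as well. Acta2 lost its call without high doublet scores (-1.71). On leaving out 1 library Crabp1, C1rb, Bmp4, Acta2 and Olfr1033 each lost the call in 4 of 6 fits. Aldh1a2, Gdpd3 and Ecrg4 lost it in 3 and Ifi202b, Pla2g7, Gm10260 and Pax1 in 2, whereas Cebpb and Gabra3 kept it.

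Among the adipogenesis-regulatory genes, Tmem176a (-1.06), Tmem176b (-1.13) and Vtn (-1.48) fell, 3 of 20, and 17 did not pass the limma-voom test, among them Apoe (-0.07) and Cxcl12 (-0.07). Of 8 ECM-remodelling markers 5 were higher in hyperplasia (Crabp1, Pla2g7, Enpp2, Cdh11 and Lox), of 11 coagulation genes 4 were higher (among them Plau, 3.18, F2r, 2.96, and Plat, 1.26) and 1 lower (Anxa2, -0.88), and of 15 adipocyte differentiation genes Cebpa (1.55), Cebpb, Plin2 (1.91) and Pparg (1.04) were higher and Cebpd (-0.92) lower. Wildtype placebo members were not part of this comparison. The higher of their Pparg values given above lay near the top of the range of members outside the tumors. Of 11 Hedgehog genes 1 rose (Gas1, 0.64) and 1 fell, where 6.24% of all genes rose and 5.85% fell. The Wnt target Axin2 rose from 2.504 and 5.99 to 19.2 and 19.5 CPM (2.32). Of 7 cycling genes Mki67 (-5.14) and Top2a (-5.99) fell and 5 were not called. Mki67 was very low in hyperplasia members, at the values given below beside the tumors. The normal arm includes puberty, a stage in which the study reports cycling fibroblasts. On leaving out 1 library Axin2 ranged from 1.66 to 2.84 and lost the call in 4 of 6 fits. Leaving out the puberty library left 4 calls, and leaving out the adult, hyperplasia 1 or hyperplasia 2 library left 116, 25 or 35.

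In the tumors, cells meeting the rule were low in 10 of the 20 adipogenesis-regulatory genes and in Hhip, and high in all 7 cycling genes, compared with members in hyperplasia. Against hyperplasia, limma-voom called 1860 genes higher (14.2%) and 1933 lower (14.7%) of 13133, 28.9% in all, and the groups did not overlap for 68.8% of genes. A changed make-up of the members and changed RNA per cell cannot be told apart in these sums. Of the tumor members, 1583 held exactly 3 markers and 20 held all 6. Apoe stood at 116 and 614 CPM in these classes, and Hhip at 0.989 and 23.6 CPM. Hhip fell from 18.5 and 17.4 CPM to 2.55 and 0.794 CPM (-3.80 ± 0.70 SE, limma-voom adjusted p = 0.0103), Apoe from 1630 and 1533 to 249 and 53.2 CPM (-3.81 ± 0.61 SE, limma-voom adjusted p = 0.00743) and Inmt from 275 and 304 to 12.97 and 8.90 CPM (-4.81 ± 0.30 SE, limma-voom adjusted p = 0.00105). C7 fell from 53.1 and 84.2 to 2.32 and 0.251 CPM (-6.66), and Hoxc10 (-8.41), Myoc (-7.60), Cnmd (-5.95), Cxcl13 (-5.80) and Ppl (-5.22) fell too. Myoc was not called by edgeR (-3.70) or with the mouse as a block (-3.81). On leaving out 1 library Hhip ranged from -4.52 to -2.84 and Apoe from -4.95 to -2.70. Each lost its call in 1 of 6 such fits, and Myoc and Cxcl13 in 2. Of the 20 adipogenesis-regulatory genes 10 fell, among them Cpe (-4.61), Vtn (-3.79) and Chrdl1 (-2.83), and 2 rose (Bgn, 1.54, and Tmem176a, 0.89). Of 11 Hedgehog genes 4 fell (among them Hhip, Cdon, -1.46, and Boc, -0.99), and Gli1 (-0.48) was not called. Of 8 monooxygenase and oxidation genes 6 fell, led by Cyp2f2 (-4.10).

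Cdk1, the mitotic kinase, was at 0 in hyperplasia members and at 18.7 and 38.5 CPM in the tumors, at least 218-fold higher. Mki67 went from 0.0911 and 0.188 to 28.4 and 48.5 CPM (7.65 ± 1.00 SE, limma-voom adjusted p = 0.00424), and all 7 cycling genes rose, Top2a (8.50) and Hmmr (7.98) being among the largest rises. On leaving out 1 library Cdk1, Top2a (7.11 to 9.88) and Hmmr each lost the call in 2 of 6 fits and Mki67 in 1. Kif26b was at least 394-fold higher (0 in both hyperplasia libraries, 54.8 and 54.6 CPM in the tumors), and the matrix genes Col11a1 (9.01) and Ltbp2 (8.15) rose with it. The remaining tumor fibroblasts showed Kif26b at 67.4 and 72.1 CPM and Mki67 at 16.3 and 29.9 CPM. Members and rest were thus both high, and the difference between them in this response was not tested. Without the hyperplasia 1 or hyperplasia 2 library 473 or 1003 genes were called, and without tumor 1, 5807.

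Across the stages the largest ratios in members belonged to milk proteins, haemoglobins and Acta2, the smooth muscle actin. Of 6595 genes with at least 100 member UMIs in their highest stage, 1823 (27.6%) differed by at least 2-fold and 316 (4.79%) by at least 4-fold between the highest and lowest library, with no test. The whey protein gene Wap reached 144 CPM in lactation, where 44.1% of members and 49.8% of the remaining fibroblasts held a UMI of it, and the caseins Csn2 (125 CPM), Csn1s1, Csn1s2a and Csn1s2b behaved alike, so their level was no higher in members than in other fibroblasts. The haemoglobin genes Hbb-bs and Hba-a1 were highest at puberty, with all 1194 UMIs of Hbb-bs in 1 cell and 374 of 376 UMIs of Hba-a1 in 1 cell. Acta2 reached 377 CPM in pregnancy in 53 of 416 members, with 206 of its 666 UMIs in 1 cell. Its ratio of highest to lowest fell from 225 to 30.0 without high doublet scores. Igfbp2 (60.8 CPM) and Chchd10 (61.8 CPM) peaked in involution, also in the rest (177 and 78.0 CPM).

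Other genes followed different courses in members. Cebpb stood at 44.0, 53.5, 35.1, 592 and 757 CPM from puberty through adult, pregnancy and lactation to involution, while placebo members at the adult age held 512 and 1053 CPM, so a gap of that size also separated wildtype libraries of the same labelled age. Here too the placebo mice carried an implanted pellet. The stages had the matrix calcification inhibitor Mgp at 1830, 760, 1516, 2486 and 5760 CPM. Apoe was highest before lactation, at 1482, 1750, 837, 488 and 645 CPM in the same order. Hhip was highest at puberty (50.1 CPM) and lowest in involution (11.5 CPM), Prlr went from 64.9 CPM at puberty to 8.38 CPM in lactation, and Aldh1a2 from 26.4 CPM at puberty to 3.49 CPM in involution. Plau (7.49 to 103 CPM), Bmp4 (2.78 to 39.5 CPM) and Crabp1 (1.72 to 80.9 CPM) were highest in lactation or involution. Bmp4 in placebo members at the adult age, given above beside hyperplasia, also lay far above the adult library. Cygb and Cxcl12 varied by 1.32 and 1.22 times.

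By list, 13 of 20 adipogenesis-regulatory genes differed by at least 2-fold among stages, with a median ratio of 2.55 beside 1.67 over all 6595 genes. All 6 ECM-remodelling markers with enough UMIs did so (median 5.54), as did 8 of 10 coagulation and fibrinolysis genes and 7 of 11 adipocyte differentiation genes. Of 11 mesenchymal transcription factors 2 passed 2-fold (median 1.36), and 3 of 8 Hedgehog genes passed it (median 1.72). Among the 6 markers in members, whose levels the rule bears on, F3 varied most (138 to 483 CPM, pregnancy to lactation) and Meox2 least (95.2 to 156 CPM, involution to puberty).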

How the data were processed

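The authors aligned droplet 3′ single-cell RNA reads to mm10 with Cell Ranger 6.1.2 and deposited UMI counts per gene and barcode (32285 genes), without normalization. Positions are from GENCODE M21, which held 32158 of these identifiers. Counts of members and of remaining fibroblasts were summed per library, because cells are not replicates, and expressed as CPM of the summed class. Members were compared with remaining fibroblasts (library block), and MPA+E with placebo (members, remaining cells and their difference), by edgeR 4.0.16 quasi-likelihood tests. Hyperplasia, tumor and normal (puberty and adult) members were compared with limma 3.58.1 (limma-voom), all 6 libraries sharing a fit, following the study's choice of test. Adjusted p-values are Benjamini-Hochberg over all genes tested, called at 0.05, and SE is that of the fitted log2 change. DESeq2 1.42.0 was an alternative. All ran in R 4.3.3, with Python 3.11.15, numpy 2.4.6, scipy 1.17.1 and scanpy 1.11.5 (Scrublet, top scores at 0.8% per 1000 barcodes). The fits were tested on simulated counts.

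Genes were named as those with the largest changes among called genes with a mean of at least 20 CPM in the higher class and either the same sign in all 13 libraries or arms that did not overlap, 12 per direction for members against the rest, 8 per direction for MPA+E and 6 per direction for hyperplasia and tumor. For the stages they were the 10 with the largest ratio among genes with at least 100 UMIs in the highest stage. Gene lists were added to these. A few named or listed genes are not reported here. The members and lists were chosen with earlier results of these data known, and the part of the adipogenesis-regulatory list that the study drew from its own cluster is not independent evidence.

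Hyperplasia and tumor of the same number came from 1 mouse, and their deviations from the group means correlated at 0.15 over 13231 genes. Wildtype libraries pooled mice, so the p-values for MPA+E against placebo measure the spread between pools. Normal tissue in the limma-voom fit was 1 puberty and 1 adult library, so its spread includes the difference in stage and age. For members against the rest, the p-values measure the spread of the difference within libraries over libraries of unlike groups. Exact intervals and the floor of 3 counts cover counting error only. Alternatives changed the filter, the normalization, the tool, the thinning, the number of markers, doublets and single libraries. Without the tumors, members against the rest was refitted as an alternative chosen after seeing the data. Genes with near-identical copies may share reads.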

Additional observations from a re-analysis of the deposited data

Results flagged for a closer look

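The response to MPA+E differed between members and the remaining fibroblasts of the same libraries, in the edgeR test of the difference itself, for 11 genes whose values are described above, among others. Each value below is the log2 change in members minus that in the remaining fibroblasts. The part of a changed make-up of the remaining fibroblasts was not tested. The difference was 1.82 for Chrdl1, 1.33 for Ccn3 and 0.74 for Anxa3. It was -3.56 for C7, -1.76 for Rspo1, -1.22 for Cxcl12, -1.19 for C2, -0.97 for C4b, -0.82 for Inmt, -0.65 for Igfbp3 and -0.62 for Igf1. Adjusted p-values in edgeR ran from 1.4e-05 (Chrdl1 and C7) to 0.0434 (Igfbp3). Chrdl1, C7, Cxcl12, C2, C4b, Rspo1 and Anxa3 were also called when each of the 4 libraries was left out in turn, whereas Igfbp3 and Igf1 lost the call in 2 such fits and Ccn3 and Inmt in 1. Over all alternatives, those of tool, filter, markers and doublets included, the 11 genes lost 9 calls. C2 went from 46.6 and 41.8 to 94.7 and 106 CPM in the remaining fibroblasts and stood at 236 and 249 CPM in placebo and 206 and 272 CPM in MPA+E members. C4b went from 273 and 242 to 674 and 686 CPM in the remaining fibroblasts, and members stood at 546 and 506 CPM in placebo and 713 and 670 CPM in MPA+E. C4b shares sequence with C4a and its level is uncertain.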

How the results depend on the processing

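Depth was varied for the shares, the markers in cells chosen by the other 5 and members against the rest, but not for the other gene comparisons, and where a value moved the cause was not tested. For the share of members, leaving out 1 library gave log2 differences of -0.84 to 0.0499 for MPA+E (0.0499 without MPA+E 2) and 0.08 to 1.32 for hyperplasia (0.0306 after thinning to 2000 UMIs). For the tumors they were -0.24 to 0.60 (-0.24 without tumor 2, -0.0025 without hyperplasia 2), and the direction reversed after thinning to 2000 (-1.98) or 4000 UMIs (-1.22), with at least 4 markers (-0.67), and on dropping Clec11a (-0.60), F3 (-0.69) or Meox2 (-0.43) from the rule. The ratio of puberty to pregnancy was 2.63 with at least 2 markers, where involution (31.1%) and lactation (25.8%) exceeded puberty (24.3%), 6.04 with at least 4, and 5.51, 4.74 or 5.12 without Gdf10, Clec11a or Vit.

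For members against the rest, 3517 genes were called in the stage libraries alone, 429 in the raGFP-Wnt1 libraries alone and 955 without the library block, beside 6184, and Pparg reversed to 0.0578 in the raGFP-Wnt1 libraries. For MPA+E in members, 999 genes were called without the filter and 268 to 635 on leaving out 1 library (635 without MPA+E 1), beside 315. With the replicate block 1174 were called. The labels do not say that libraries of the same number share anything else. Their correlation was 0.30, beside 0.15 for the libraries of 1 mouse, and a shared preparation was not tested. For the difference in response 683 were called without the filter, 274 with at least 4 markers and 58 to 223 on leaving out 1 library (58 and 59 without placebo 1 and 2), beside 165. For hyperplasia 606 were called with at least 4 markers and 4 to 3573 on leaving out 1 library (3541 and 3573 without tumor 1 and 2), beside 1587. For the tumors 2098 were called with at least 4 markers and 473 to 5807 on leaving out 1 library (2493 and 2470 without puberty and adult), beside 3793, and the mouse as a block (replicate block) gave 4237 calls. With an arm of 1 library, that library was assumed to vary like the others.

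Of the 6 markers over all fibroblasts, 0 to 3 were called for MPA+E on leaving out 1 library and 2 with the replicate block, 0 to 2 for hyperplasia, and 0 to 3 for the tumors with 4 under the replicate block. F3 lost its MPA+E call without placebo 1 (-0.79) or 2 (-0.98). On leaving out 1 library the log2 change of Clec11a with MPA+E ranged from -0.39 to 0.12 (reversed without MPA+E 2), and in hyperplasia Clec11a ranged from -0.31 (without adult) to 1.16, Meox2 from -0.81 to 0.0936 (without puberty) and Vit reached 0.12 (without hyperplasia 2). With members drawn to the same number per stage, 1213 genes differed by at least 2-fold among stages.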

Other observations

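Against hyperplasia, the tumor cells that met the rule also differed in lists not described above. Of 15 adipocyte differentiation genes 2 rose and 7 fell (median log2 change -0.80), where 14.2% of all genes rose and 14.7% fell, and of 20 BMP and TGF-beta genes 3 rose and 7 fell (median -0.43). Of 11 coagulation and fibrinolysis genes 5 rose, among them Serpine2 (3.0), an inhibitor of thrombin, and F2r (2.00), a thrombin receptor, and 3 fell, among them the thrombomodulin gene Thbd (-1.36). Of 8 ECM-remodelling markers 4 rose, among them Postn (1.93), the matrix protein periostin, and 2 fell, among them Enpp2 (-4.02), the enzyme autotaxin. Of 14 Wnt genes 5 rose, among them Sfrp1 (1.72), Sfrp2 (2.20) and Lgr5 (2.13), and 4 fell, among them Rspo1 (-3.20), Wnt10b (-2.49) and Axin2 (-1.56), with a median of 0.64.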
